A study of Mus musculus with 9 samples.

Results

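The Sine oculis homeobox, Eyes absent and Dachshund network was described here through 8 of its genes: Six2, Six4, Six5, Eya1, Eya2, Eya3, Eya4 and Dach1. They were chosen by name, from 22225 protein-coding genes on the autosomes and sex chromosomes of the mm9 annotation. Each gene was followed through the ATAC-seq peaks whose midpoint lay in its gene body or within 50 kb on either side, and the 8 windows do not overlap. A peak was called promoter when its midpoint was within 1 kb of any annotated transcription start site (TSS), whether of the named gene or of a neighbor, and distal otherwise.

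ATAC-seq marks open chromatin by the insertion of a transposase, and a peak is an interval where insertions pile up. The study asked how loss of the T-box transcription factor Tbx1 changes chromatin in the cardiopharyngeal lineage at E9.5. GFP-positive cells were sorted from pooled Swiss Webster embryos, in 3 libraries for each of 3 groups. Cre was expressed from the locus that names each group and recombined a floxed GFP reporter, of which all embryos carried a single copy at Rosa26. The Tbx1-Cre Ctrl embryos carried Cre in place of an allele of Tbx1 beside a normal allele, so they were heterozygous for Tbx1. The Tbx1-Cre cKO embryos carried the same Cre allele over a floxed Tbx1 allele. The Mesp1-Cre Ctrl embryos carried Cre at Mesp1 and no engineered Tbx1 allele. Tbx1-Cre marks cells of mesoderm, endoderm and ectoderm, whereas Mesp1-Cre marks mesoderm. The labels add the back of the embryo to the tissue of both Tbx1-Cre groups but not to that of the Mesp1-Cre group, so lineage and dissection cannot be told apart in comparisons with Mesp1-Cre. The labels also name the heart, which the methods of the study leave out of the dissection.

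Sine oculis homeobox proteins, such as SIX2, SIX4 and SIX5, are homeodomain transcription factors. EYA proteins do not bind DNA themselves, and act as their coactivators and as phosphatases, while DACH proteins are corepressors related to SKI that can oppose them. The network is known for its roles in the pharyngeal arches, ear, kidney and skeletal muscle, and human EYA1 mutations cause branchio-oto-renal syndrome. TBX1 is needed for pharyngeal arches and the outflow tract of the heart.

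The lists differed in length before any gene was considered. They held 43298 to 49490 peaks in the Tbx1-Cre Ctrl libraries, 19772 to 29251 in cKO and 25485 to 42650 in Mesp1-Cre. Promoter peaks made up 33.9 to 36.1% of the Ctrl lists, 49.3 to 63.0% of the cKO lists and 37.8 to 53.0% of the Mesp1-Cre lists. The longest Mesp1-Cre list, replicate 1, had a length that the study's own sample summary does not give for that group, and the other lists of the group are numbered differently there. Some comparisons with Mesp1-Cre are therefore also given without that library, and the others include it. Sequencing depth is unknown here, so the main counts of genes and regions stand beside the same count over all genes or regions. As a check of the sorted cells, promoter peaks were found at 6 to 7 of 7 mesoderm marker genes in Ctrl, at 3 to 6 in cKO and at 5 to 7 in Mesp1-Cre. At 7 epithelial marker genes they were found at 1 to 3 in Ctrl, 0 to 1 in cKO and 1 to 3 in Mesp1-Cre, with none at Krt18 in Ctrl or cKO and none at Cldn6 in any library. Of the neural list, 3 of 4 genes were found in the annotation, and 1 to 2, 0 to 2 and 1 to 2 of them had a promoter peak in the same order of groups. Of 5 endothelial and blood markers, 1 to 2 had a promoter peak in each group, with none at Pecam1, Cdh5 or Gata1. The part of cell composition in the results was not tested.

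The regions that turned on the comparison lay mostly in introns, and the sequences of 5 regions are shown. Each is 300 bases of the plus strand of mm9 (NCBIM37), centred on the bases shared by the libraries that called it. Capitals mark matches to motifs, which were searched on both strands: AGGTGTGA, a T-box site, TGATAC, the core of a Sine oculis homeodomain site, and TCAGGTTTC, the MEF3 site bound by the same factors. The Dach1 intron regions at chr14:98538754-98539053, chr14:98466907-98467206 and chr14:98293098-98293397 were called in every Ctrl library and in no cKO library. The intergenic region at chr17:86136579-86136878, upstream of Six2, was called in all 9 libraries and is shown as their contrast. The Eya1 intron region at chr1:14207036-14207335 was called in 2 Ctrl libraries, and is shown because it was the only distal region of the 8 genes with the T-box site, a choice made after its values were seen.
Dach1 intron near the start: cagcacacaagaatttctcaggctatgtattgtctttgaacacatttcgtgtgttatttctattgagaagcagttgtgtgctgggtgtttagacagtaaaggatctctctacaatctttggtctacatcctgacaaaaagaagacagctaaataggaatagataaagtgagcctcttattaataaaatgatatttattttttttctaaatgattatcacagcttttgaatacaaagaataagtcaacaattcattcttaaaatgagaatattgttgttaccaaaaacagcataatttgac
Dach1 intron, middle: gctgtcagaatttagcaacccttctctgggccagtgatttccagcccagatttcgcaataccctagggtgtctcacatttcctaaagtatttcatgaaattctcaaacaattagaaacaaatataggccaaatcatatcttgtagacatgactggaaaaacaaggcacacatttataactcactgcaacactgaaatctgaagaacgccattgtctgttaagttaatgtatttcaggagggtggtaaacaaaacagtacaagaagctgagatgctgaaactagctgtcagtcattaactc
Dach1 intron, far: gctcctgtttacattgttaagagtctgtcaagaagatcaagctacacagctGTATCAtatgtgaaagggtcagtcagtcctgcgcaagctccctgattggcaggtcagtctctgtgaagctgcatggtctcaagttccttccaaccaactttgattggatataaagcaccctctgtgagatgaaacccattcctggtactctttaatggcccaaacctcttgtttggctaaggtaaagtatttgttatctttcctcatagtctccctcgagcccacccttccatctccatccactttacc
Six2 upstream, all libraries: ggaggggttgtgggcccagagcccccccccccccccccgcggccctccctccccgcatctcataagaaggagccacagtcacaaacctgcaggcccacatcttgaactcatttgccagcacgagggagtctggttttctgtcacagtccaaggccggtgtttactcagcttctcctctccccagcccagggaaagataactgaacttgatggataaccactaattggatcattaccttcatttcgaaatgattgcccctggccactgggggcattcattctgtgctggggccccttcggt
Eya1 intron with T-box site: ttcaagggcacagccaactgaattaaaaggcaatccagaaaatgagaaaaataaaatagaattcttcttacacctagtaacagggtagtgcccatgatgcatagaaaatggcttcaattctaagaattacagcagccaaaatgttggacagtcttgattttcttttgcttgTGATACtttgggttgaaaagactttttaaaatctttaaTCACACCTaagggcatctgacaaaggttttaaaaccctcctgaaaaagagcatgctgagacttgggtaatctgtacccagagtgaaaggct
The far Dach1 region held a homeodomain core, read on the minus strand as TGATAC, and the last Eya1 region held a homeodomain core on the plus strand and the T-box site on the minus strand. The other 3 sequences held none of the motifs. Over the 300 bases at the midpoint of each of the 63 distal regions in the 8 windows, the T-box site was found in 1, the MEF3 site in 0 and the homeodomain core in 8. The same windows of 55118 distal regions genome-wide held them in 1.04%, 0.980% and 6.69% of cases. A match describes letters only. Binding was not measured in these libraries, and the separate TBX1 ChIP-seq of the study was not used here.

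Peaks were fewer in cKO than in Tbx1-Cre Ctrl over the 8 windows, and the difference lay in the distal peaks. In replicate order, the windows held 66, 46 and 54 peaks in Ctrl, 38, 31 and 23 in cKO and 47, 29 and 41 in Mesp1-Cre. Every cKO library was below every Ctrl library, while Mesp1-Cre replicate 1 exceeded the lowest Ctrl library. The Ctrl mean was 55.3 ± 10.1 (SD, n = 3 libraries) and the cKO mean 30.7 ± 7.51, a difference of -24.7 peaks (p = 0.1, exact two-sided permutation test). With 3 libraries against 3, 0.1 is the smallest p that this test can give, so no comparison here could pass 0.05. The Mesp1-Cre mean was 39 ± 9.17, which differed from Ctrl by -16.3 peaks (p = 0.2, exact permutation test) and from which cKO differed by -8.33 (p = 0.3, exact permutation test). Without Mesp1-Cre replicate 1 these differences were -20.3 (p = 0.2, exact permutation test), with no overlap between the groups, and -4.33 (p = 0.5, exact permutation test). Both the cKO and the Mesp1-Cre comparison used the same Ctrl libraries. Fewer cells with an open region and a smaller opening per cell cannot be told apart in sorted bulk cells.

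Distal peaks numbered 46, 29 and 36 in Ctrl, 19, 13 and 9 in cKO and 27, 13 and 23 in Mesp1-Cre. The distal difference from Ctrl was -23.3 peaks for cKO and -16 for Mesp1-Cre, with no overlap of libraries in either case (both p = 0.1, exact permutation test). Without Mesp1-Cre replicate 1 the distal difference for Mesp1-Cre was -19 (p = 0.2, exact permutation test). Promoter peaks numbered 20, 17 and 18 in Ctrl, 19, 18 and 14 in cKO and 20, 16 and 18 in Mesp1-Cre, and these groups overlapped. Their differences from Ctrl were -1.33 (p = 0.7, exact permutation test) and -0.333 (p = 1, exact permutation test), and turned to 10.7 and 5.85 when scaled to list length (both p = 0.1, exact permutation test). Without Mesp1-Cre replicate 1 the promoter difference for Mesp1-Cre was -1.33 (p = 0.5, exact permutation test). The distal loss was close to that of the whole lists: the cKO to Ctrl ratio of means was 0.369 in the 8 windows and 0.356 over all distal peaks, and for promoter peaks 0.927 and 0.832. Expressed per 10000 distal peaks of the same list, the 8 windows held 14.3, 10.5 and 11.6 in Ctrl, 12.8, 12.7 and 12.3 in cKO and 10.2, 10.9 and 14.5 in Mesp1-Cre. On that scale, added after seeing the data, the groups overlapped, and cKO differed from Ctrl by 0.484 (p = 0.7, exact permutation test). Scaled to the length of the whole list, the distal cKO difference was -8.30 without overlap (p = 0.1, exact permutation test). For Mesp1-Cre it was -5.41 with overlap (p = 0.2, exact permutation test). When the number of all peaks was scaled to list length, the cKO difference turned from -24.7 to 2.39 (p = 0.6, exact permutation test).

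The raw means of all 8 genes were lower in cKO than in Ctrl, a direction that turned at Six2, Six4, Six5, Eya3 and Eya4 when peaks were scaled to list length. Libraries did not overlap at 2 genes, Eya1 and Dach1. Over 19993 gene windows with a peak, 27.1% had every cKO library below every Ctrl library, and 29.3% did among windows with a Ctrl mean in the range of the 8 genes. For distal peaks the same 2 genes qualified against 25.3% of windows, and for promoter peaks 0 of 8 against 8.3%. Shares of 2 of 8 and 0 of 8 were near these backgrounds. Without Tbx1-Cre Ctrl replicate 2 the count was 4 of 8 (39.7% of windows), and without cKO replicate 1 it was 5 of 8 (43.5% of windows). With flanks of 100 kb it was 6 of 8, against 37.8% of windows. For Mesp1-Cre, only Eya1 lay below Ctrl in every library, for all peaks (10.4% of windows) and for distal peaks (11.1%), and 3 genes did so with the wider flanks (12.5% of windows). The Mesp1-Cre count was 3 without Mesp1-Cre replicate 1 (28.6% of windows) and 2 without any 1 of the Ctrl libraries (14.2 to 19.8% of windows). In raw counts of all peaks no gene was higher in every cKO or Mesp1-Cre library than in every Ctrl library, against 0.16% and 0.43% of windows. With all peaks scaled to list length, every cKO library lay above every Ctrl library at 3 of 8 genes, against 31.6% of windows. These were Six4, Six5 and Eya3, with differences of 2.47, 2.64 and 1.56 (all p = 0.1, exact permutation test). On the same scale distal peaks lay below Ctrl in every cKO library at 1 gene, Eya1 (difference -3.27, p = 0.1, exact permutation test), against 13.3% of windows. Per distal peak of the list, every cKO library lay above every Ctrl library at 2 genes, Six2 and Six4, against 14.7% of windows. Over all windows the smallest Benjamini-Hochberg adjusted p for all peaks was 0.367 for cKO and 0.921 for Mesp1-Cre, from exact permutation tests. For distal peaks it was 0.395 and 0.873, from the same tests. In either class 0 windows had p below 0.05 before or after adjustment.

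**Figure D1:**
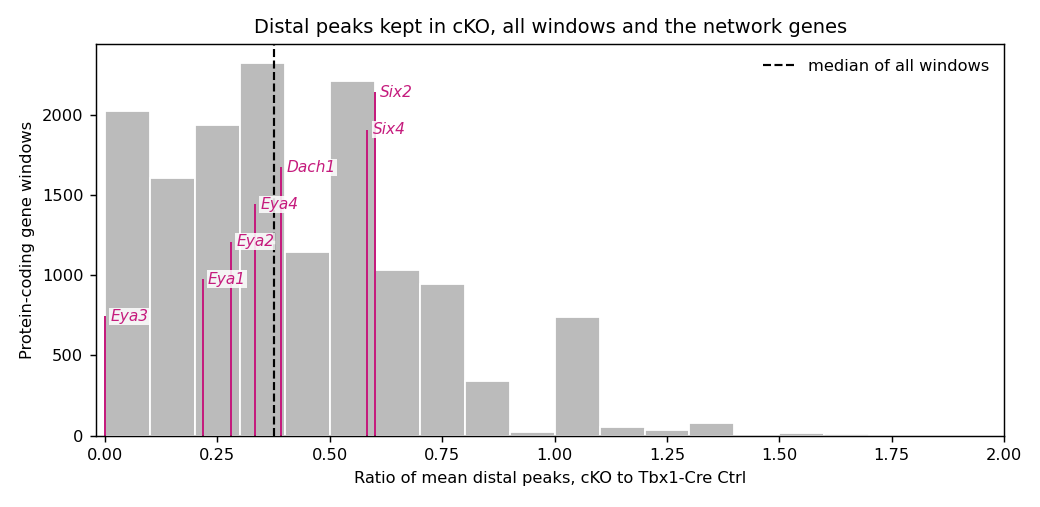
Histogram of the ratio of mean distal peaks in cKO to Tbx1-Cre Ctrl (x axis) over 14516 protein-coding gene windows with a Ctrl mean of at least 1 distal peak (y axis, number of windows), with lines at 7 of the 8 genes and a dashed line at the median of all windows, 0.375. The genes spread from 0 at Eya3 to 0.6 at Six2, with 4 of 7 below the median of all windows.

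Sine oculis homeobox genes encode the DNA-binding partners of the network, and Six2 is known for keeping nephron progenitors undifferentiated. The Six2 window held 10, 7 and 6 peaks in Ctrl, 7, 4 and 4 in cKO and 6, 4 and 5 in Mesp1-Cre. The groups touched or overlapped, and neither difference from Ctrl, -2.67 peaks in both cases, had p below 0.2 (exact permutation tests). Without Mesp1-Cre replicate 1 its difference was -3.17 (p = 0.2, exact permutation test), without overlap. Per 10000 distal peaks of the list, Six2 held 2.80, 2.17 and 1.61 in Ctrl and 4.05, 2.93 and 4.10 in cKO. On that scale the direction turned and the groups did not overlap (difference 1.5, p = 0.1, exact permutation test). All libraries called the Six2 promoter and 2 distal regions. The region 49199 bp upstream, whose sequence is shown above, was covered over 825, 652 and 687 bp in Ctrl, 657, 596 and 542 bp in cKO and 639, 520 and 569 bp in Mesp1-Cre, so that only Mesp1-Cre was narrower than Ctrl in every library. The other distal region, 23181 bp downstream of the TSS, was covered over 862, 640 and 517 bp in Ctrl, 425, 201 and 491 bp in cKO and 311, 242 and 450 bp in Mesp1-Cre. It was narrower than Ctrl in every library of both other groups (ratios 0.553 and 0.497, both p = 0.1, exact permutation test), although its 9 peaks had no base common to all. A region 36383 bp downstream was covered over 827, 840 and 735 bp in Ctrl, by 797 bp in cKO replicate 1, and by no peak in the other cKO libraries or in Mesp1-Cre.

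Six4 is a homeodomain factor of muscle precursors that acts redundantly with a related family member. Its window held 7, 5 and 6 peaks in Ctrl, 7, 5 and 3 in cKO and 5, 4 and 6 in Mesp1-Cre. The groups overlapped for all peaks and for distal peaks, which were 5, 3 and 4 in Ctrl, 3, 2 and 2 in cKO and 3, 2 and 3 in Mesp1-Cre. Per 10000 distal peaks of the list, Six4 held 1.55, 1.08 and 1.29 in Ctrl and 2.02, 1.95 and 2.73 in cKO. The cKO libraries were then all above Ctrl (difference 0.928, p = 0.1, exact permutation test), where the raw distal means were lower in cKO. The distal region called in all libraries lay 59234 bp from the nearest Six4 TSS, in the downstream flank, which also reaches the neighborhood of another gene. It was covered over 391, 535 and 594 bp in Ctrl and 269, 494 and 338 bp in cKO. Its Mesp1-Cre peaks, of 542, 509 and 522 bp, lay within the Ctrl range. A coding-exon region of Six4 was called in every Ctrl library and in no Mesp1-Cre library, with Ctrl peaks of 203, 200 and 221 bp that shared no common base, and cKO replicate 1 alone among the cKO libraries had a peak there, of 390 bp.

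Six5, a further homeodomain factor, lies in a gene-dense stretch of chromosome 7, and 10 of the 12 regions in its window were at promoters, mostly of neighbors. Its peaks numbered 10, 7 and 7 in Ctrl, 7, 6 and 5 in cKO and 9, 5 and 7 in Mesp1-Cre, with overlap between groups. Distal peaks were found only in Ctrl replicate 1, which had 2. Six5 thus entered the distal comparison with almost no distal peaks.

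Eya1, the coactivator and phosphatase most tied to ear, kidney and pharyngeal arch defects, showed the clearest separation. Its window held 8, 8 and 10 peaks in Ctrl, 3, 2 and 4 in cKO and 3, 3 and 6 in Mesp1-Cre. Each cKO and each Mesp1-Cre library was below the lowest Ctrl library. Distal peaks were 7, 7 and 9 in Ctrl, 2, 1 and 2 in cKO and 2, 2 and 5 in Mesp1-Cre. The distal difference from Ctrl was -6 peaks for cKO and -4.67 for Mesp1-Cre (both p = 0.1, exact permutation test), or -4.17 without Mesp1-Cre replicate 1. The cKO to Ctrl ratio was 0.217 where the median window had 0.375. Per 10000 distal peaks of the list, Eya1 held 2.17, 2.53 and 2.90 in Ctrl and 1.35, 0.977 and 2.73 in cKO. On that scale cKO replicate 3 fell within the Ctrl range and the difference was -0.848 (p = 0.3, exact permutation test).

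An Eya1 region 5820 bp upstream of the TSS was covered over 696, 934 and 776 bp in Ctrl and by 274 and 261 bp in cKO replicates 2 and 3, but by no Mesp1-Cre peak. The opposite case, singled out after its values were seen, was an intron region 5252 bp from a TSS of Eya1. It was covered over 314, 309 and 446 bp in Mesp1-Cre, over 274 bp in Ctrl replicate 1, and by no cKO peak. Near the 3' end, a region 124112 bp from the gene start was called in all libraries except cKO replicate 2. Eya1 regions included some seen with Tbx1-Cre alone and some seen in both lineages. The region with the T-box site was covered over 268 and 221 bp in Ctrl replicates 2 and 3 and not called elsewhere.

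**Figure D2:**
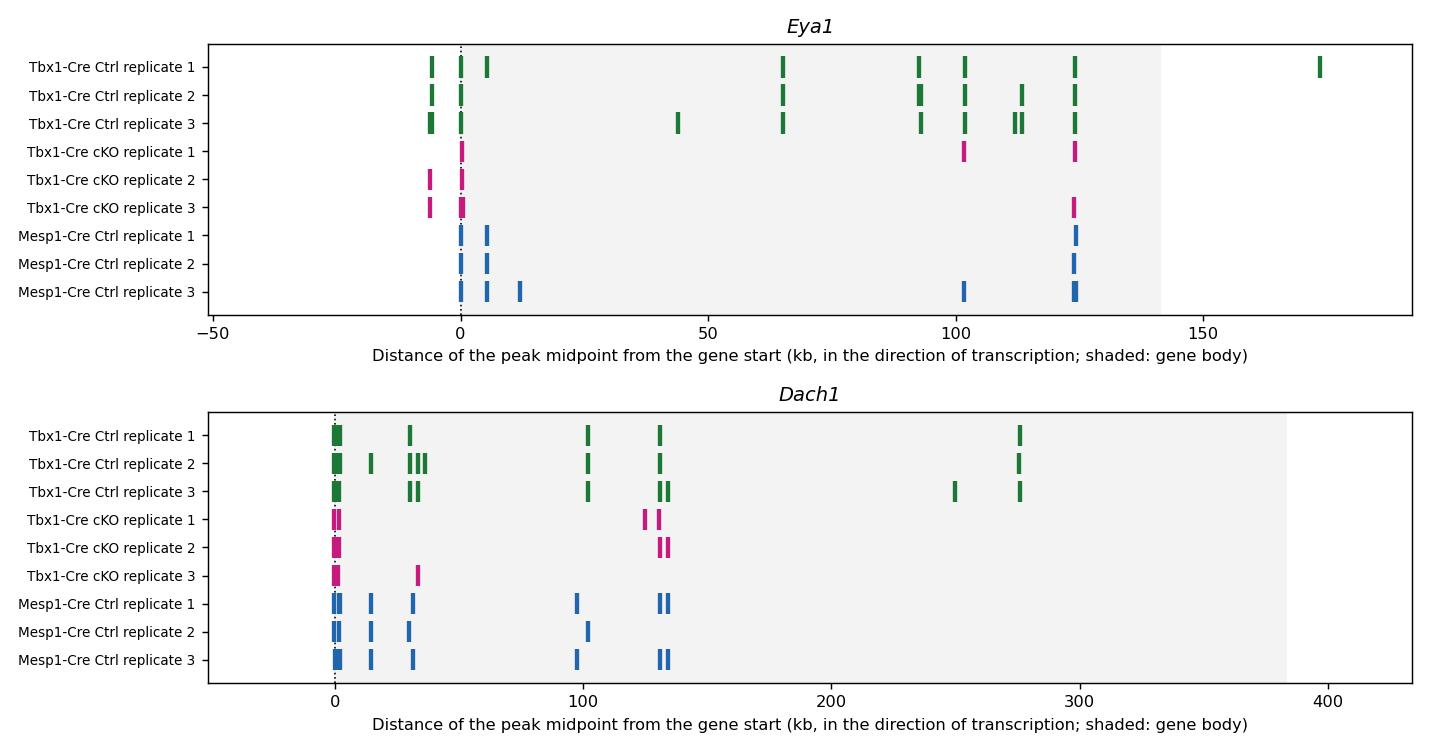
Position of every peak at Eya1 and Dach1, as distance of the peak midpoint from the gene start in kb along the direction of transcription (x axis), with 1 row per library and the gene body shaded. Both promoters carried a peak in all 9 rows, and the introns of both genes held fewer peaks in the cKO rows than in the Tbx1-Cre Ctrl rows.

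Eya2 has the same activities as Eya1 and is known from placodes and muscle. All of its peaks were distal, 13, 4 and 8 in Ctrl, 5, 2 and 0 in cKO and 4, 2 and 2 in Mesp1-Cre. The spread among the Ctrl libraries was as wide as the difference, and cKO replicate 1 exceeded Ctrl replicate 2. Differences from Ctrl were -6 for cKO and -5.67 for Mesp1-Cre (both p = 0.2, exact permutation test). Without Mesp1-Cre replicate 1 the latter was -6.33 (p = 0.2, exact permutation test), and the groups did not overlap. The region nearest to an Eya2 TSS lay 1642 bp from it and was covered over 909, 408 and 835 bp in Ctrl, 826, 468 and 599 bp in Mesp1-Cre and, in cKO, over 342 bp in replicate 2 only. A region 45317 bp into the gene was covered over 852, 655 and 562 bp in Ctrl, 329 bp in cKO replicate 1 and by no Mesp1-Cre peak. The intron region 93586 bp from the gene start was called in all Ctrl libraries and in no other library, but its Ctrl peaks of 467, 200 and 230 bp had no base in common, so it is not shown as a sequence.

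Eya3 is the most broadly expressed of the family, and Eya4 is known for inherited deafness and heart muscle disease. The Eya3 window held 6, 4 and 5 peaks in Ctrl, 4, 4 and 3 in cKO and 5, 5 and 5 in Mesp1-Cre. Most of these were promoter peaks, and distal peaks were 2, 0 and 1 in Ctrl, 0, 0 and 0 in cKO and 1, 0 and 1 in Mesp1-Cre. Eya3 was the only gene of the 8 at which each cKO library was below each Mesp1-Cre library (difference -1.33, p = 0.1, exact permutation test), 1 of 8 against 6.22% of windows. This rested on how peaks were split: the 5 peaks of Mesp1-Cre replicate 2 lay in the 4 promoter regions of the window. Counted by region, that library was level with cKO replicates 1 and 2. Only 1 of the 4 promoter regions was at a TSS of Eya3 itself. The Eya4 window held 5, 1 and 2 peaks in Ctrl, 1, 3 and 1 in cKO and 7, 1 and 2 in Mesp1-Cre. Replicate 1 of Mesp1-Cre carried 5 of the 6 distal Mesp1-Cre peaks at Eya4, and without it the difference of all peaks from Ctrl turned from 0.667 to -1.17.

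Dach1 encodes a corepressor expressed in limb buds, eye and neural tissue, among others, and spans 383 kb. Its window held 7, 10 and 10 peaks in Ctrl, 4, 5 and 3 in cKO and 8, 5 and 8 in Mesp1-Cre. The cKO libraries lay below all Ctrl libraries, and the Mesp1-Cre libraries overlapped with Ctrl. Distal peaks were 6, 9 and 8 in Ctrl, 3, 4 and 2 in cKO and 7, 4 and 7 in Mesp1-Cre. The distal difference from Ctrl was -4.67 for cKO (p = 0.1, exact permutation test) and -1.67 for Mesp1-Cre (p = 0.4, exact permutation test), or -2.17 without Mesp1-Cre replicate 1 (p = 0.3, exact permutation test). Per 10000 distal peaks of the list, Dach1 held 1.86, 3.25 and 2.58 in Ctrl and 2.02, 3.91 and 2.73 in cKO. On that scale the direction turned and the groups overlapped (difference 0.324, p = 0.6, exact permutation test). Scaled to the length of the whole list, the direction stayed and the groups overlapped. The differences were then -1.49 for distal peaks (p = 0.2) and -1.02 for all peaks (p = 0.4, both exact permutation tests).

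Dach1 held 3 of the 5 regions called in every Ctrl and no cKO library. The region 30279 bp from the gene start was covered over 696, 641 and 680 bp in Ctrl, and over 199 bp in Mesp1-Cre replicate 2. The region at 101945 bp was covered over 400, 430 and 791 bp in Ctrl, and again over 199 bp in Mesp1-Cre replicate 2. The region at 275711 bp, which held the homeodomain core, was covered over 280, 481 and 463 bp in Ctrl and by no Mesp1-Cre peak. The 2 Mesp1-Cre peaks were as narrow as the narrowest of any list, 199 bp. An intron region 14647 bp from the gene start, singled out after its values were seen, was covered over 664, 629 and 743 bp in Mesp1-Cre, over 200 bp in Ctrl replicate 2 and by no cKO peak. The region called in all libraries, 1469 bp from a Dach1 TSS, was covered over 943, 865 and 1168 bp in Ctrl, 214, 685 and 359 bp in cKO and 507, 353 and 713 bp in Mesp1-Cre. Both other groups were narrower than Ctrl in every library there (ratios 0.423 and 0.529, both p = 0.1, exact permutation test), and 18 bp were common to all 9 libraries.

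Merging overlapping peaks of the 9 libraries gave 84 regions in the 8 windows, of 73343 in all. Of these, 63 were distal, and 44 of the 84 midpoints lay in introns, 30 between genes and 10 in exons. A single library called 24 of them, against 31.6% of all regions. Every Ctrl and no cKO library called 5 distal regions, 5 of 63, against 7.96% of distal regions genome-wide. This count was 9 without Ctrl replicate 2 (12.8% genome-wide), 8 without Ctrl replicate 3 (10.4%) and 9 without cKO replicate 1 (12.7%). Every Ctrl and no Mesp1-Cre library called 7 of 63, against 6.96%. Without Mesp1-Cre replicate 1 the count was also 7, but the rule is then looser and its genome-wide share is not given. Every Mesp1-Cre and no cKO library called 2 of 63, against 3.13%. All 9 libraries called 4 of 63 distal regions, against 5.99%, and 12 of 21 promoter regions, against 56.8%. No region was called in every cKO and no Ctrl library, where 0.0136% of all regions were, or in every Mesp1-Cre and no Ctrl library, where 0.734% were. Of the 54 distal regions with a peak in any Ctrl library, 21 also had a cKO peak, against 35.7% genome-wide, and 24 a Mesp1-Cre peak, against 46.1%. Of the 19 distal regions called in every Ctrl library, 14 had a peak in at least 1 cKO library, against 72.2%, and 12 in at least 1 Mesp1-Cre library, against 75.7%.

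**Figure D3:**
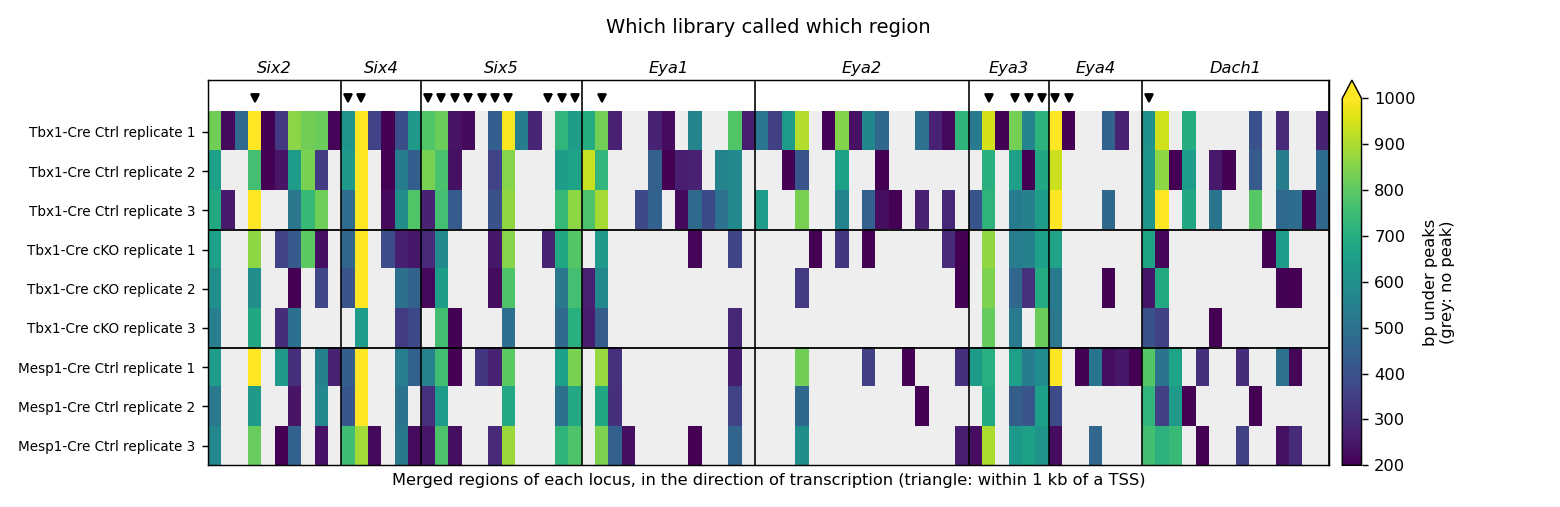
Base pairs under peaks (color, grey where no peak was called) for 84 merged regions in the 8 windows (columns, grouped by gene and ordered along transcription) in 9 libraries (rows). Regions at promoters, marked by triangles, were mostly called in all rows, whereas most distal columns had gaps, more of them in the cKO rows.

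The genes' own promoters stayed called. At 7 of the 8 genes a promoter region was present in all 9 libraries, and Eya2 had no peak within 1 kb of its TSS in any library. The width of these regions did vary. The Eya4 promoter was covered over 1322, 937 and 1243 bp in Ctrl, 660, 528 and 516 bp in cKO and 1127, 384 and 226 bp in Mesp1-Cre. No base of this region was common to all 9 libraries. Eya1 was covered over 831, 727 and 891 bp in Ctrl, 629, 574 and 437 bp in cKO and 877, 681 and 841 bp in Mesp1-Cre. Six5 was covered over 993, 856 and 866 bp in Ctrl and 854, 781 and 491 bp in cKO, where the nearest libraries differed by 2 bp. Each cKO library covered fewer bp than each Ctrl library at these 3 of 7 promoters (all p = 0.1, exact permutation test). The same held at 41.3% of 10345 promoter regions called in all libraries. In Mesp1-Cre this held at 0 of 7 promoters, against 19.1%. Without Mesp1-Cre replicate 1 it held at Eya4 and at Six4, where replicates 2 and 3 covered 1108 and 889 bp. The Ctrl libraries covered 1789, 1139 and 1927 bp at Six4. The share over all such regions without that library is not given. The median cKO to Ctrl ratio of width was 0.708 for the 7 promoters and 0.8 over all such regions, and the Mesp1-Cre ratio 0.869 and 0.891. The Eya3 promoter was not narrower in cKO (ratio 1.06, p = 0.6, exact permutation test). The Dach1 promoter was wider in Mesp1-Cre, 786, 725 and 759 bp against 607, 624 and 619 bp in Ctrl, without overlap (ratio 1.23, p = 0.1, exact permutation test), while its cKO widths of 666, 246 and 398 bp spanned the Ctrl values.

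**Figure D4:**
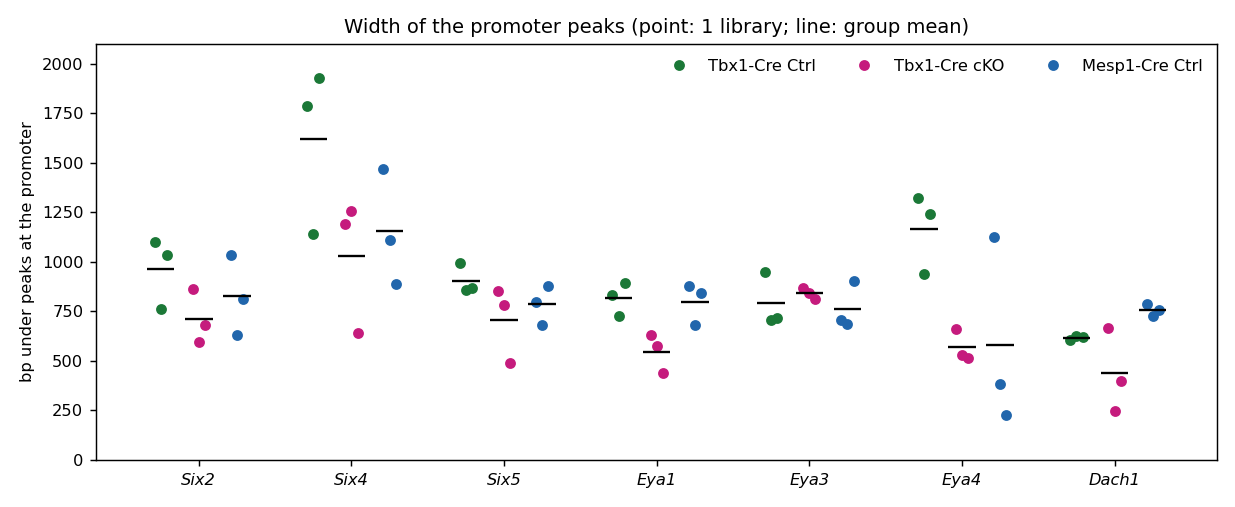
Base pairs under peaks at the promoter region (y axis) of the 7 genes with a promoter peak in all libraries (x axis), 1 point per library, with a line at the group mean. The cKO points lay below all Tbx1-Cre Ctrl points at Six5, Eya1 and Eya4, and the Mesp1-Cre points lay above them at Dach1.

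A list of 24 other genes that work with or below the network was counted in the same way, including the Pax factors, SKI relatives of Dach1 and muscle regulators. In cKO, 15 of 24 had every library below every Ctrl library for all peaks and 12 of 24 for distal peaks, and 0 were above, where the shares over all windows were 27.1% and 25.3%. In Mesp1-Cre, 7 and 6 of 24 were below, where they were 10.4% and 11.1%. These genes were not drawn at random, and no test was made of the list. The median cKO to Ctrl ratio of the list was 0.448 for all peaks and 0.348 for distal peaks, where all gene windows had 0.667 and 0.375. The ratio of means of the whole peak lists was 0.523 for all peaks and 0.356 for distal peaks. In Ctrl, distal peaks made up 100 of 139 peaks on average in these 24 windows, and 30306 of 46600 in the whole lists. The counts of these 24 genes were not scaled to list length. Pax9, a pharyngeal pouch factor, had 5, 6 and 7 peaks in Ctrl, 3, 2 and 2 in cKO and 3, 2 and 2 in Mesp1-Cre. Gdnf, a kidney growth factor downstream of the network, had 2, 1 and 2 in Ctrl, 0 in all cKO libraries and 1, 0 and 0 in Mesp1-Cre. The myogenic factor Myf5 had 3, 3 and 3 in Ctrl, 1, 1 and 0 in cKO and 2, 1 and 1 in Mesp1-Cre. Pax9, Gdnf and Myf5 were each among the 15 genes without overlap, so they do not stand for the whole list. At Pax8 and Fgf8, for example, the groups overlapped. Replicate 1 of cKO held 5 peaks at either gene, above the lowest Ctrl library, which held 4 at Pax8 and 3 at Fgf8. For the 8 network genes themselves the median ratio was 0.639 for all peaks. For distal peaks it was 0.333, over the 7 genes with a Ctrl mean of at least 1 distal peak. That median is the value of Eya4, which had 2, 0 and 1 distal peaks in Ctrl and 0, 1 and 0 in cKO.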

How the data were processed

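The authors deposited 1 peak list per library, holding chromosome, start and end in bp (mm9) and no score or signal. Per the methods of the study, adapters were removed with cutadapt, reads were aligned to mm9 with Bowtie2 2.3.4.3, uniquely mapped proper pairs without duplicates or mitochondrial reads were kept, and MACS2 called peaks in each library separately.

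Genes, TSS and sequence came from NCBIM37 with GENCODE vM1. Peaks were assigned by midpoint, to windows of the gene with 50 kb on either side, and called promoter within 1 kb of any TSS. Peaks overlapping by at least 1 bp were merged into regions, and width is the bp under a library's peaks in a region. Differences between group means (n = 3) were tested by exact permutation of libraries, two-sided, over 20 relabellings, with a script checked on simulated data. Nothing in the labels says that replicates came from separate litters, so p-values measure the spread between these libraries. Tables were handled with pandas 2.3.3 under Python 3.11.15, with scipy 1.17.1 and numpy 2.4.6. Alternatives were flanks of 10 and 100 kb, assignment by overlap, promoters within 2 kb or of coding genes only, the 19772 widest peaks of each list, scaling to list length, 50% coverage of a region, leaving out each library, and a replicate block. Scaling to the distal or promoter peaks of a list was added after seeing the data. The genes and gene lists were chosen with earlier results of these data known. All 8 genes were named, with regions called in every Ctrl and no cKO library (up to 3 per gene) and the widest distal region of all 9 libraries for each gene. All other regions named were chosen after their values were seen. A single region of the kind called in every Ctrl and no cKO library is counted but not reported here.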

Additional observations from a re-analysis of the deposited data

How the results depend on the processing

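Depth is unknown and the lists hold no score, so a missing peak is no measurement of closed chromatin, and no comparison of 3 with 3 libraries can pass 0.05. Of 194 recomputed values for the 8 windows together and the counts of genes and regions, 152 stayed close to those reported and 14 changed sign. For single genes, 489 of 560 stayed close and 27 changed sign. Many of these values could not move. The replicate block changes only p-values, and the promoter settings leave counts of all peaks unchanged. Leaving out a library outside a comparison also leaves that comparison unchanged. These shares therefore say little about the settings that address list length, which are given next.

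Scaled to list length, the cKO minus Ctrl difference turned to 2.39 for all peaks, and was -8.30 for distal and 10.7 for promoter peaks. Mesp1-Cre minus Ctrl was 0.439, -5.41 and 5.85, cKO minus Mesp1-Cre was 1.95, and 0 genes lay below Ctrl in every library of either group, while Six4, Six5 and Eya3 lay above Ctrl in every cKO library and distal Eya1 (-3.27) stayed below. Scaled to the distal or promoter peaks of each list, cKO minus Ctrl was 0.956 for distal (0.639 at Dach1) and 1.85 for promoter peaks, with every cKO library above Ctrl for distal peaks at Six2 (2.96) and Six4 (1.83). Mesp1-Cre minus Ctrl was -0.559 for distal peaks and 1.39 for promoter peaks, the latter without overlap (all 3 p = 0.1, exact permutation test). With the 19772 widest peaks of each list, cKO minus Ctrl was -1.67, -3 and 1.33 for all, distal and promoter peaks, Mesp1-Cre minus Ctrl was -2 and -2.33 for all and distal peaks, cKO minus Mesp1-Cre was 0.333, 0 genes lay below Ctrl in every cKO or Mesp1-Cre library, and 1 and 2 regions were called in every Ctrl and no cKO or no Mesp1-Cre library. With 100 kb flanks, cKO minus Ctrl was -43.7, -36.7 and -7 and Mesp1-Cre minus Ctrl -30.7, -26 and -4.67, with 6 and 3 genes below Ctrl. With 10 kb flanks 9 regions were called in all 9 libraries. Requiring 50% coverage of a region gave 9 regions called in every Ctrl and no cKO library and 6 called in all. No share over all windows or regions is given for the counts with 10 kb flanks, 50% coverage or the widest peaks. The same is true of the 0 genes below Ctrl after scaling to list length. These counts are therefore not read against a background.

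Leaving out each library in turn, cKO minus Ctrl ranged from -29.3 to -19.3 for all, -27.3 to -18.8 for distal and -2.33 to 0.167 for promoter peaks. Mesp1-Cre minus Ctrl ranged from -21 to -11, -20 to -11.5 and -1.33 to 0.667, and cKO minus Mesp1-Cre from -13.3 to -4.33. Genes below Ctrl ranged from 2 to 5 for cKO and 1 to 3 for Mesp1-Cre, regions called in every Ctrl and no cKO library from 5 to 9, in every Ctrl and no Mesp1-Cre library from 7 to 10, and in all libraries from 16 to 20. Fewer libraries loosen each of these counts by construction, and the cause of the other changes was not tested.

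Whether same-numbered libraries shared a day or litter is not known. Their deviations correlated at -0.00389 to 0.0503 in 9 pairs, and the mean for other-numbered libraries ranged from -0.0282 to 0.00186. With the replicate block the cKO minus Ctrl difference was -24.7 for all and -23.3 for distal peaks (both p = 0.25, exact sign-flip test, the smallest it can give). The block changes only p-values, so differences and calls of overlap were bound to stay the same.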
